A study of Mus musculus with 18 samples.

Results

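The genes described here are 7 transcription factor genes of the osteoblast lineage: Runx1, Runx2, Runx3, Cbfb, Sp7, Mef2c and Twist2. They were chosen by name, for their known roles in bone formation, out of 55335 genes counted in each library. Earlier results of these data were known when they were chosen. All 7 were found and passed the filter on low counts at both days. They were followed by bulk RNA-seq of O9-1 cells, a wild-type mouse line of cranial neural crest cells, in medium that induces osteoblasts. Ctrl+vehicle cells carried a control siRNA without target and received no FGF2 (fibroblast growth factor 2). Ctrl+FGF2 cells carried the same control siRNA and received FGF2. Y/T dKD+FGF2 cells received FGF2 together with pools of siRNA against Yap and Taz, the transcriptional co-activators restrained by the Hippo pathway. Each of these 3 groups had 3 libraries after 2.5 days (d2.5) and 3 libraries after 5 days (d5), 18 libraries in all. No knockdown without FGF2 was analysed here, so the knockdown was compared with Ctrl+FGF2. The model is 1 cell line with a transient, incomplete knockdown. The labels do not say whether replicates came from separate cultures, so p-values measure the spread between these libraries only, which may be technical.

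Runx proteins share a Runt domain that binds DNA, and Cbfb is the partner that does not bind DNA itself but stabilises that binding. Runx2 is required for osteoblasts to form, and Sp7, also called Osterix, is a zinc finger factor that acts after Runx2 in the same lineage. Runx1 is best known from blood formation and is also made by skeletal progenitors, and Runx3 is known from T cells, sensory neurons and maturing cartilage. Mef2c is a MADS-box factor of muscle, heart and neural crest derivatives that also acts in cartilage and bone. Twist2 is a basic helix-loop-helix factor of mesenchyme, and Twist proteins can bind the DNA-binding domain of Runx2 and hold it back.

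The 3 Runx genes share a stretch of sequence near a start site, which is shown because it holds a pair of the short core that Runx proteins bind. The windows are of 30 bases, taken from RefSeq on GRCm38.p6 and written 5' to 3' on the strand of the gene, with the core ACCACA in capitals. The Runx1 window lay at chr16:92826025-92826054 on the minus strand, with its first core base 28 bases after the RefSeq start site. The Runx2 window lay at chr17:44814583-44814612 on the minus strand, with its first core base 23 bases after the start site. The Runx3 window lay at chr4:135120503-135120532 on the plus strand, with its first core base at position -134 from the start site.
Runx1: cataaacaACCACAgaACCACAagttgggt
Runx2: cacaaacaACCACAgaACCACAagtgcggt
Runx3: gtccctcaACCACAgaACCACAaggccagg
Both strands were searched for ACCACANNACCACA in 32851 RefSeq promoter windows of 300 bases (250 before to 50 after the start), and 7 of them (0.0213%) held it, 3 of which were these. The core ACCACA alone was present in 16.8% of the windows, every tandem match among them. Windows were given for 6 of the 7 genes: 2 for Runx1, 1 for Runx2, 2 for Runx3, 1 for Cbfb, 3 for Mef2c and 1 for Twist2. No ACCACA was found in the windows of Cbfb, Mef2c and Twist2, or in the other window of Runx1 and of Runx3. CATTCC, the core bound by the Tead partners of Yap and Taz, was found in 14.7% of all windows and in 1 window each of Runx1 and Mef2c. A match to letters is a description and no measured binding site, and gene counts do not show which start site was used.

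Gene counts per library lay between 10377151 and 14698525. Levels are given as CPM, the counts scaled to library size with TMM factors over all 18 libraries, and changes as log2 fold changes with their standard errors (SE). A gene is called changed where the Benjamini-Hochberg adjusted p of edgeR's quasi-likelihood test, fitted across all genes, was under 0.05, and every adjusted p below comes from that test. The siRNA targets checked the labels: under FGF2 the knockdown lowered Yap1 1.94-fold at d2.5 and 2.17-fold at d5, and Wwtr1, which encodes Taz, 1.64-fold and 1.74-fold, with no overlap between libraries. FGF2 itself had raised Wwtr1 1.57-fold at d2.5, and its level in Y/T dKD+FGF2 (136 CPM) was not called different from vehicle (140 CPM, -0.06 ± 0.04, adjusted p = 0.122). Of the 8 cranial mesenchyme markers, Prrx1 and Vim were high (medians 1743 and 4323 CPM), while Thy1 and Eng were low (0.197 and 1.14 CPM). The early neural crest markers Sox10 and Foxd3 were at 0 counts in all 18 libraries. The label of neural crest cells names the line, and every library was taken after 2.5 or 5 days of osteoblast induction. Other genes of the neural crest list, Tfap2a (median 42.0 CPM) and Ets1 (57.1 CPM), were present. The blood markers Itgam and Hbb-bt, the endothelial marker Cdh5 and the skeletal muscle markers Myod1, Myog and Ckm were at 0 counts in every library. The 8 blood markers summed to between 0.994 and 5.50 CPM, and the 6 endothelial markers to between 0.735 and 4.28 CPM. Because the labels give each day its own batch, day and batch cannot be told apart, and groups were compared within a day.

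Across the 18 libraries the lineage factors spanned a wide range of levels. Per length of exons, which allows genes to be compared, Ctrl+vehicle cells at d2.5 held most Cbfb (83.1 CPM per kb ± 2.82, SD, n = 3) and Sp7 (53.6 ± 12), followed by Runx2 (18.5 ± 0.144), Mef2c (11.8 ± 0.258), Runx3 (11.4 ± 0.0967), Twist2 (2.41 ± 0.165) and Runx1 (0.890 ± 0.105). Between its lowest and its highest library, Sp7 varied 8.84-fold, Twist2 7.30-fold, Runx1 4.25-fold and Mef2c 3.07-fold. The range of Runx3 was 2.30-fold, that of Runx2 2.27-fold and that of Cbfb 1.84-fold. In bulk RNA, fewer cells of a type and less RNA per cell cannot be told apart.

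**Figure D1:**
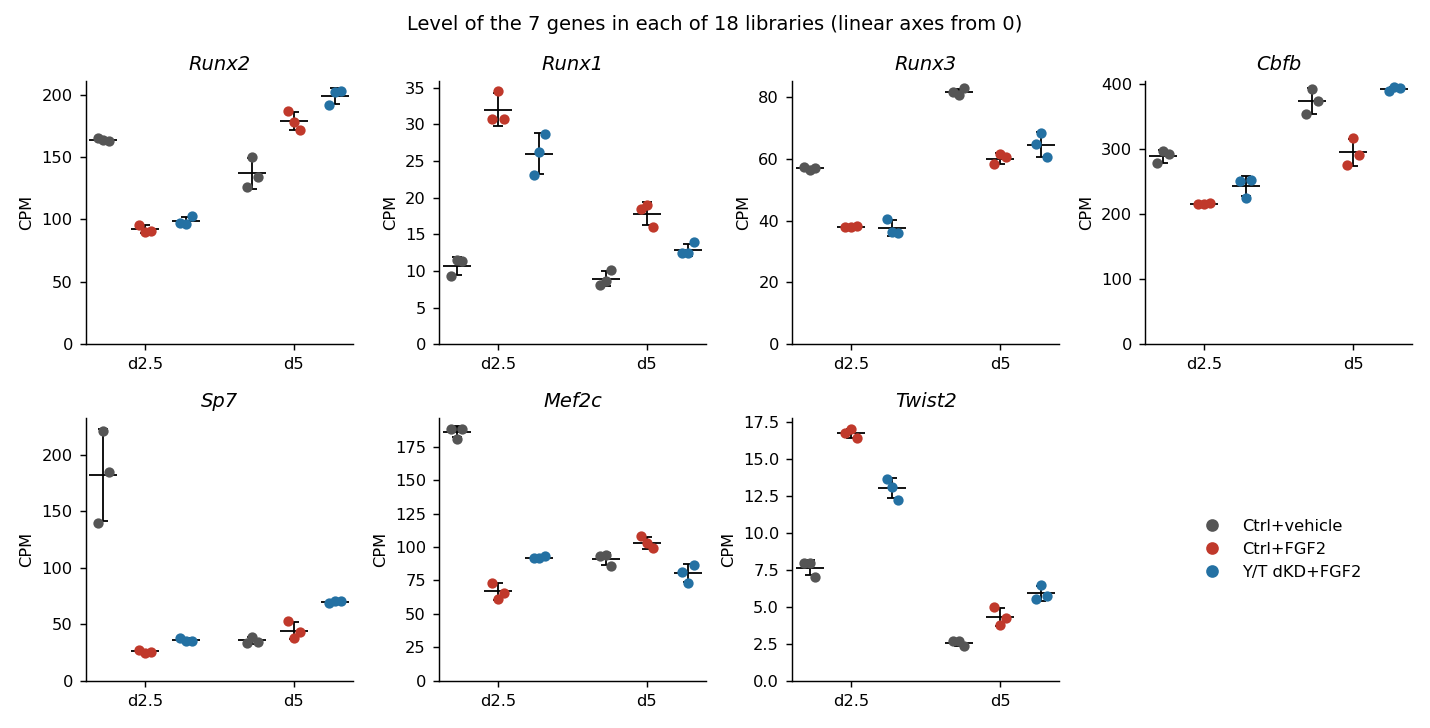
Level in CPM (linear axes from 0) of each of the 7 genes in every library, by group and day. Points are libraries and bars are the mean ± SD of 3 libraries. Sp7 and Mef2c stood highest in Ctrl+vehicle at d2.5 and Runx3 in Ctrl+vehicle at d5, Runx1 and Twist2 stood highest in Ctrl+FGF2 at d2.5, and Runx2 and Cbfb stood highest in Y/T dKD+FGF2 at d5.

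FGF2 was compared with vehicle to see how the growth factor changed the lineage factors during osteoblast induction. At d2.5, Sp7 was 7.04-fold lower, Mef2c 2.80-fold lower, Runx2 1.79-fold lower, Runx3 1.51-fold lower and Cbfb 1.35-fold lower with FGF2, while Runx1 was 2.97-fold higher and Twist2 2.16-fold higher. All 7 were called, 2 higher and 5 lower, in a comparison where 67.6% of 13677 tested genes were called (33.5% higher, 34.1% lower). The count itself is thus near the background, and the changes are described by their sizes, which were not ranked against all genes. All 7 also had no overlap between libraries of the groups, as did 70.5% of tested genes. At d5 all 7 were again called, but 5 were higher and 2 lower, against 47.2% of 13304 genes called (23.5% higher, 23.7% lower). Libraries with FGF2 and with vehicle stood apart for 6 of the 7 at d5, against 54.5% of tested genes.

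The knockdown of Yap and Taz was compared with Ctrl+FGF2 to see how the co-activators bear on these genes under FGF2. At d2.5, Sp7 and Mef2c were each 1.37-fold higher and Cbfb 1.12-fold higher with the knockdown, while Runx1 was 1.24-fold lower and Twist2 1.30-fold lower. These are 5 of 7 genes called, 3 higher and 2 lower, against 24.5% of all tested genes (10.8% higher, 13.6% lower), and 6 of 7 had no overlap between libraries, against 39.4%. At d5, Sp7, Cbfb, Twist2 and Runx2 were called higher and Runx1 and Mef2c lower, 6 of 7 genes against 31.7% of all tested genes (15.6% higher, 16.1% lower). The libraries did not overlap for 6 of 7 genes at d5, against 45.0%. The FGF2 and the knockdown comparison share the Ctrl+FGF2 libraries, so opposite signs in them are not independent, and the levels of all 3 groups are given side by side below.

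Runx2, the factor without which osteoblasts do not form, counted 165, 164 and 163 CPM in Ctrl+vehicle at d2.5. Its level was 95.8, 89.7 and 90.8 CPM in Ctrl+FGF2 and 97.1, 96.4 and 103 CPM in Y/T dKD+FGF2. The vehicle libraries thus stood above all FGF2-treated libraries at d2.5, and the 2 groups with FGF2 lay next to each other without overlap. FGF2 lowered Runx2 at d2.5 (log2 fold change -0.84 ± 0.04, adjusted p = 2.0e-18). The knockdown difference of 0.09 ± 0.04 at d2.5 was not called (adjusted p = 0.109). At d5 vehicle was the lowest group instead of the highest, and the knockdown again stood above Ctrl+FGF2. Ctrl+vehicle held 126, 150 and 134 CPM of Runx2, Ctrl+FGF2 187, 178 and 172 CPM, and Y/T dKD+FGF2 192, 202 and 203 CPM. FGF2 raised Runx2 at d5 (0.40 ± 0.05, adjusted p = 6.7e-06), and the difference between the FGF2 effects of the days was itself called (1.22 ± 0.07, adjusted p = 1.9e-15). The knockdown raised Runx2 at d5 by 0.15 ± 0.05 (adjusted p = 0.0356). That call held in 4 of 9 fits that left out 1 library, with values from 0.12 to 0.18. It was lost without Ctrl+vehicle replicate 3 (0.15, adjusted p = 0.0502), without Ctrl+FGF2 replicate 2 (0.14, 0.0671) or replicate 3 (0.12, 0.152), and without Y/T dKD+FGF2 replicate 2 (0.13, 0.127) or replicate 3 (0.13, 0.116). With upper-quartile factors its adjusted p was 0.0504.

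Runx1 was the Runx gene that rose with FGF2 at both days. At d2.5 it counted 9.25, 11.5 and 11.4 CPM in Ctrl+vehicle, 30.8, 34.6 and 30.7 CPM in Ctrl+FGF2, and 23.1, 26.3 and 28.7 CPM in Y/T dKD+FGF2. At d5 it counted 8.14, 8.67 and 10.1 CPM in Ctrl+vehicle, 18.4, 19.0 and 16 CPM in Ctrl+FGF2, and 12.4, 12.5 and 13.9 CPM in Y/T dKD+FGF2. At each day the knockdown libraries lay between those of the other 2 groups and overlapped neither. FGF2 raised Runx1 by 1.57 ± 0.09 on the log2 scale at d2.5 (adjusted p = 7.1e-16) and by 1.00 ± 0.11 at d5 (adjusted p = 8.1e-07). The rise was smaller at d5 (difference -0.59 ± 0.15, adjusted p = 0.00135). The knockdown lowered Runx1 at d2.5 (-0.31 ± 0.08, adjusted p = 0.00464) and at d5 (-0.47 ± 0.10, adjusted p = 0.00164). The d2.5 call was lost without Y/T dKD+FGF2 replicate 1, the lowest of its group (-0.23, adjusted p = 0.0544). The knockdown effects of the 2 days were not called different (-0.17 ± 0.13, adjusted p = 0.416).

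Runx3 fell with FGF2 at both days and was the member that the knockdown moved least. Its levels at d2.5 were 57.5, 56.5 and 57.0 CPM in Ctrl+vehicle, 38.0, 37.8 and 38.2 CPM in Ctrl+FGF2, and 40.5, 36.2 and 35.9 CPM in Y/T dKD+FGF2. Its levels at d5 were 81.8, 80.8 and 82.8 CPM in Ctrl+vehicle, 58.2, 61.7 and 60.5 CPM in Ctrl+FGF2, and 64.8, 68.5 and 60.5 CPM in Y/T dKD+FGF2. The vehicle libraries were the highest at each day, and the 2 groups with FGF2 overlapped at each day. FGF2 lowered Runx3 by -0.60 ± 0.05 at d2.5 (adjusted p = 1.3e-11) and by -0.43 ± 0.05 at d5 (adjusted p = 2.1e-06). The difference between these effects was not called (0.14 ± 0.07, adjusted p = 0.0934), but with upper-quartile factors it was (0.23, adjusted p = 0.00576). The knockdown differences were -0.03 ± 0.06 at d2.5 (adjusted p = 0.753) and 0.10 ± 0.05 at d5 (adjusted p = 0.165).

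Cbfb, the shared partner of the Runx proteins, had the highest level of the genes described. At d2.5 it held 278, 297 and 293 CPM in Ctrl+vehicle, 215, 215 and 217 CPM in Ctrl+FGF2, and 251, 225 and 252 CPM in Y/T dKD+FGF2. At d5 it held 354, 393 and 374 CPM in Ctrl+vehicle, 276, 317 and 291 CPM in Ctrl+FGF2, and 390, 395 and 394 CPM in Y/T dKD+FGF2. The Ctrl+FGF2 libraries were the lowest at each day, and at d5 the knockdown libraries overlapped those with vehicle. FGF2 lowered Cbfb at d2.5 (-0.44 ± 0.04, adjusted p = 1.1e-11) and at d5 (-0.33 ± 0.05, adjusted p = 1.8e-05). The knockdown raised it by 0.16 ± 0.04 at d2.5 (adjusted p = 0.00214) and by 0.41 ± 0.05 at d5 (adjusted p = 2.8e-06). The rise with the knockdown was larger at d5 (difference 0.24 ± 0.07, adjusted p = 0.00785). Set against vehicle at d5, the knockdown libraries gave 0.08 ± 0.05, which was not called (adjusted p = 0.188).

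Because Runx proteins compete for the same partner and sites, their levels were also read as shares of the sum of the 3 genes, each in CPM per kb of exons. With vehicle at d2.5, Runx1 made up 2.89% ± 0.347 (SD, n = 3) of the sum, against 12.9% ± 0.970 with FGF2 and 10.4% ± 1.10 with FGF2 and knockdown. The share of Runx2 was 60.1% ± 0.278 with vehicle, 50.4% ± 1.18 with FGF2 and 53.6% ± 1.25 with the knockdown. That of Runx3 was 37.0% ± 0.269, 36.8% ± 0.572 and 36.0% ± 2.34. At d5 the groups differed in another way. The share of Runx3 was 50.2% ± 2.35 with vehicle, so that Runx3 and Runx2 (47.5% ± 2.43) were level per length, whereas with FGF2 Runx2 made up 60.0% ± 1.38 and Runx3 35.6% ± 1.49. Runx1 made up 2.29% ± 0.245 with vehicle, 4.37% ± 0.304 with FGF2 and 2.94% ± 0.215 with the knockdown at d5. The sum of the 3 genes at d2.5 was 30.8 ± 0.102 CPM per kb with vehicle, 20.7 ± 0.280 with FGF2 and 20.8 ± 0.453 with the knockdown. At d5 the sum was 32.6 ± 1.30, 33.8 ± 0.727 and 36.5 ± 0.961 CPM per kb. Cbfb per kb was between 2.31 and 3.43 times that sum in every library. These shares were not tested, and they rest on the union of annotated exons, not on the isoforms made.

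**Figure D2:**
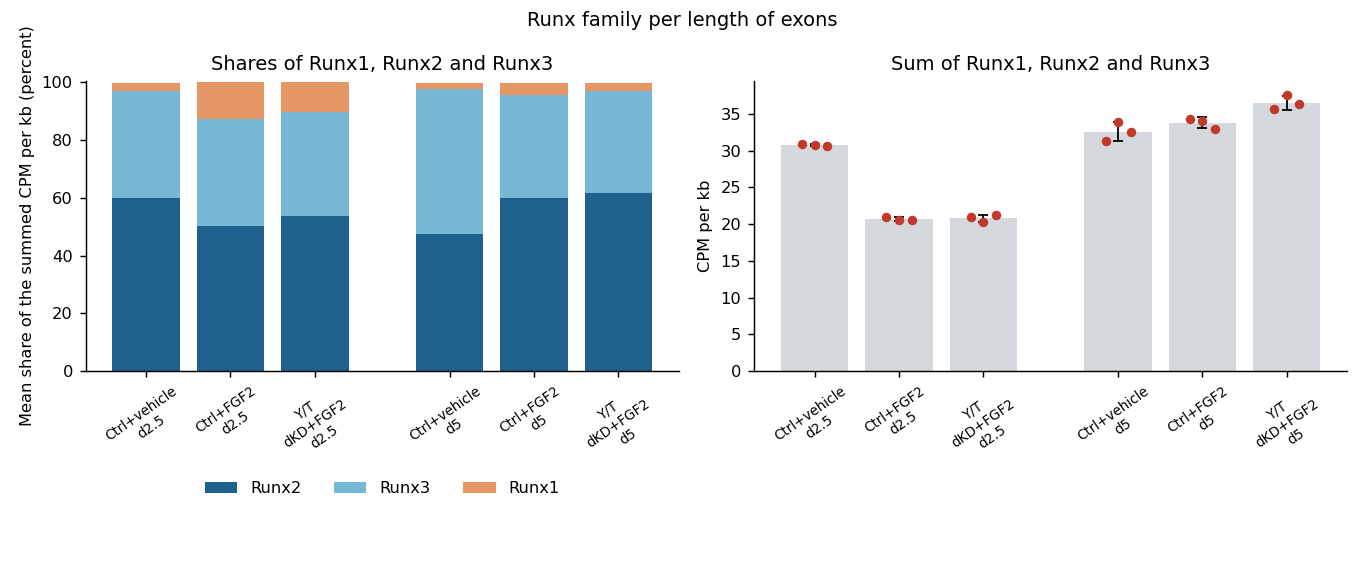
Left, mean share (percent) of Runx1, Runx2 and Runx3 in their summed CPM per kb of exons in each group. Right, that sum in CPM per kb, with points for libraries, bars for the mean and whiskers for the SD (n = 3). The sum was lower in the 2 groups with FGF2 at d2.5, where the Runx1 share was above 9%, and at d5 Runx3 took its largest share with vehicle.

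Sp7, the osteoblast factor downstream of Runx2, had the largest change of the genes described. At d2.5 it counted 140, 221 and 185 CPM in Ctrl+vehicle, 27.3, 25.0 and 26.0 CPM in Ctrl+FGF2, and 37.9, 35 and 35.2 CPM in Y/T dKD+FGF2. The 3 groups did not overlap, with the vehicle libraries far above the rest and more spread. FGF2 lowered Sp7 by -2.82 ± 0.10 (adjusted p = 5.1e-21), with values from -2.98 to -2.64 in fits without 1 library. The knockdown raised it by 0.46 ± 0.13 (adjusted p = 0.00976), and Y/T dKD+FGF2 remained 5.14-fold below Ctrl+vehicle (-2.36 ± 0.10, adjusted p = 2.1e-19). At d5 Sp7 counted 33.4, 39.2 and 34.6 CPM in Ctrl+vehicle, 52.7, 37.5 and 43.3 CPM in Ctrl+FGF2, and 69.2, 70.5 and 70.6 CPM in Y/T dKD+FGF2. The knockdown libraries were then the highest, and the other 2 groups overlapped. FGF2 gave 0.32 ± 0.09 at d5 (adjusted p = 0.00948), a call lost without Ctrl+FGF2 replicate 1, its highest library (0.18, adjusted p = 0.0649), and in 1 fit of all 18 libraries (0.30, adjusted p = 0.0628). The knockdown raised Sp7 by 0.65 ± 0.09 at d5 (adjusted p = 1.2e-05), 1.57-fold. The FGF2 effect differed between days by 3.11 ± 0.18 (adjusted p = 2.3e-15), whereas the knockdown effect was not called different (0.20 ± 0.18, adjusted p = 0.503). Over time with vehicle, Sp7 was 5.08-fold lower at d5 than at d2.5.

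Sp7 per length was set against Runx2 in each library, since they act in sequence. The ratio of their CPM per kb was 2.21, 3.51 and 2.96 with vehicle at d2.5. It was 0.740, 0.726 and 0.745 with FGF2, and 1.02, 0.945 and 0.893 with FGF2 and knockdown. At d5 it was 0.680 ± 0.00857 (SD, n = 3) with vehicle, 0.644 ± 0.0943 with FGF2 and 0.915 ± 0.0181 with the knockdown. Ctrl+vehicle at d2.5 thus stood above all other groups, without overlap.

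Mef2c, the MADS-box factor, followed Sp7 at d2.5. It counted 188, 181 and 188 CPM in Ctrl+vehicle, 73.2, 61.2 and 66.0 CPM in Ctrl+FGF2, and 91.9, 91.5 and 92.9 CPM in Y/T dKD+FGF2. The groups did not overlap, and the knockdown libraries lay above Ctrl+FGF2 and well below vehicle. FGF2 lowered Mef2c by -1.48 ± 0.05 (adjusted p = 5.2e-23) and the knockdown raised it by 0.45 ± 0.05 (adjusted p = 4.9e-08). At d5 Mef2c counted 93.3, 93.7 and 86.1 CPM in Ctrl+vehicle, 108, 103 and 99.3 CPM in Ctrl+FGF2, and 81.5, 73.2 and 86.6 CPM in Y/T dKD+FGF2. The spread between groups had narrowed, and Ctrl+FGF2 was the highest. FGF2 raised it by 0.20 ± 0.06 at d5 (adjusted p = 0.00847), a call lost without Ctrl+vehicle replicate 3 (0.16, adjusted p = 0.0608). The knockdown lowered it by -0.37 ± 0.06 at d5 (adjusted p = 7.4e-05). Both effects differed between days, that of FGF2 by 1.66 ± 0.08 (adjusted p = 2.8e-17) and that of the knockdown by -0.83 ± 0.08 (adjusted p = 8.8e-09), and each had opposite signs at d2.5 and d5. Against vehicle at d5, Y/T dKD+FGF2 gave -0.18 ± 0.06 (adjusted p = 0.0223) with overlapping libraries, and that call was lost without Ctrl+vehicle replicate 1 (-0.16, adjusted p = 0.0575) or replicate 2 (-0.16, 0.0502) and without Y/T dKD+FGF2 replicate 2 (-0.11, 0.137).

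Of the Mef2 paralogs, Mef2a ran opposite to Mef2c with FGF2 at d2.5. Per kb of exons, Mef2a was 6.42 ± 0.287 CPM with vehicle at d2.5 and 10.3 ± 0.0401 with FGF2, when Mef2c was 11.8 ± 0.258 and 4.25 ± 0.383. FGF2 raised Mef2a at d2.5 (0.67 ± 0.04, adjusted p = 5.7e-15), and the knockdown raised it a little further (0.21 ± 0.04, adjusted p = 2.4e-04). Mef2d, at 14.5 ± 0.992 CPM per kb with vehicle and 12.7 ± 0.504 with FGF2 at d2.5, had the highest mean per length of the paralogs in every group. Mef2b was at most 0.300 CPM per kb in the mean of any group.

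Twist2, of the bHLH family that can hold Runx2 back, rose with FGF2. At d2.5 it counted 7.94, 7.94 and 7.03 CPM in Ctrl+vehicle, 16.7, 17.0 and 16.4 CPM in Ctrl+FGF2, and 13.6, 13.1 and 12.2 CPM in Y/T dKD+FGF2. At d5 it counted 2.71, 2.67 and 2.33 CPM in Ctrl+vehicle, 4.96, 3.75 and 4.22 CPM in Ctrl+FGF2, and 5.53, 6.48 and 5.70 CPM in Y/T dKD+FGF2. No groups overlapped within a day, and the knockdown libraries moved from the middle at d2.5 to the top at d5. FGF2 raised Twist2 by 1.11 ± 0.10 at d2.5 (adjusted p = 8.9e-12) and by 0.75 ± 0.18 at d5 (adjusted p = 0.00244). The knockdown lowered it by -0.37 ± 0.09 at d2.5 (adjusted p = 0.00214) and gave 0.46 ± 0.15 at d5 (adjusted p = 0.0303). The difference between the knockdown effects of the days was 0.83 ± 0.16 (adjusted p = 4.0e-04), and that between the FGF2 effects was not called (-0.39 ± 0.20, adjusted p = 0.121). The d5 knockdown call was lost with DESeq2 (0.46, adjusted p = 0.192) and without Ctrl+FGF2 replicate 2 (0.36, 0.133) or replicate 3 (0.45, 0.0816) or Y/T dKD+FGF2 replicate 2 (0.38, 0.132) or replicate 3 (0.48, 0.0541). Twist2 had the fewest counts of the genes described, between 26 and 245 per library.

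The strand of the reads bears on Twist2. Its exons overlap those of the antisense gene Gm29100, which held 1 to 25 counts per library on its own strand. Counted without strand, reads in the overlap are left out, and Twist2 kept 45.0% of its counts. With unstranded counts, the knockdown differences of Twist2 were no longer called at d2.5 (-0.19, adjusted p = 0.329) or d5 (0.42, 0.166), nor was FGF2 at d5 (0.10, 0.775), nor Y/T dKD+FGF2 against vehicle at d5 (0.52, 0.0736). The difference of the knockdown effect between days was then 0.60 (adjusted p = 0.0898), while that of the FGF2 effect became called (-1.16, adjusted p = 6.9e-04). The rise with FGF2 at d2.5 stayed called without strand. Runx2 and its antisense gene Runx2os1 (4 to 16 counts per library), and Runx1 and Gm26626 (0 to 1 counts), overlap in the same manner, and unstranded counting kept 99.0% of Runx2 and 94.7% of Runx1 counts. Twist1, the better known paralog, was 34.7 ± 0.860 CPM per kb with vehicle at d2.5 and 34.5 ± 1.19 with FGF2. At d5 Twist1 was 57.3 ± 1.84 CPM per kb with vehicle and 42.6 ± 0.851 with FGF2, a fall that was called (-0.42). The ratio of Twist2 to Twist1 per kb was 0.0694 ± 0.00561 with vehicle and 0.153 ± 0.00497 with FGF2 at d2.5. At d5 the ratio was 0.0142 ± 0.00157 and 0.0318 ± 0.00390, a difference to which both genes contributed.

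**Figure D3:**
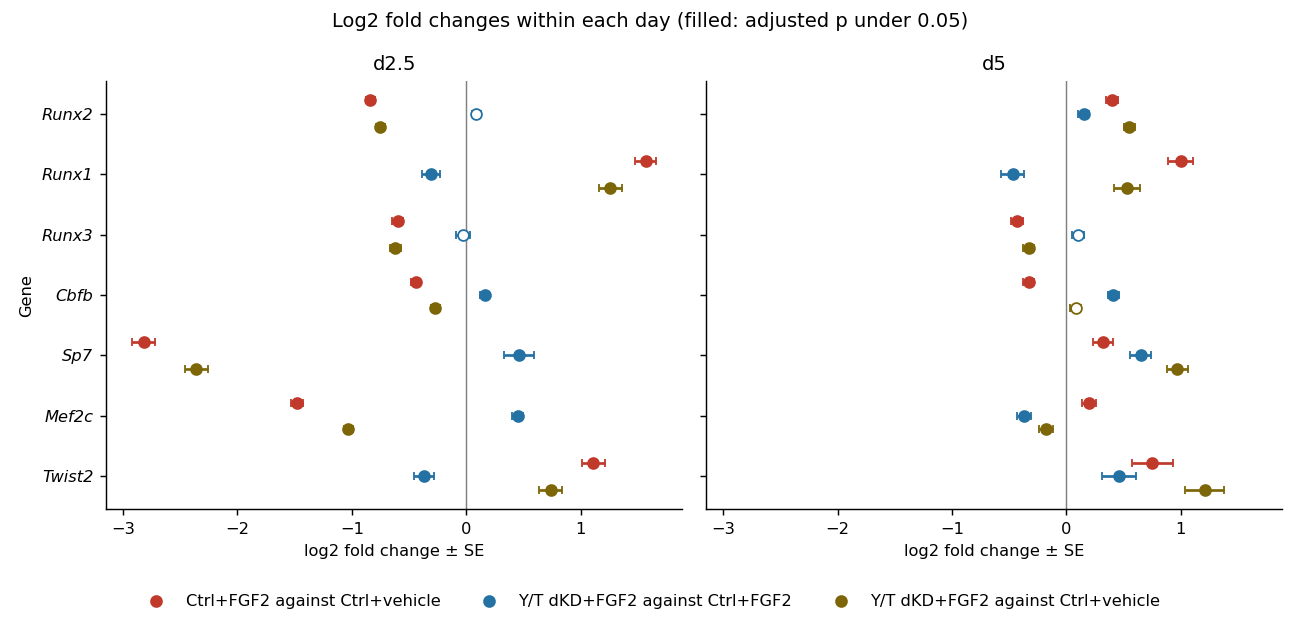
Log2 fold changes ± SE of the 7 genes within d2.5 (left) and d5 (right) for the 3 pairs of groups, from edgeR fits of the 9 libraries of a day. Filled points passed an adjusted p of 0.05. Sp7 reached -2.82 with FGF2 at d2.5 and 0.32 at d5, and Runx3 is open in the knockdown comparison at both days.

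Y/T dKD+FGF2 was also compared directly with vehicle. At d2.5 all 7 genes were called, 2 higher (Runx1, 1.26 ± 0.10, and Twist2, 0.74 ± 0.10) and 5 lower, from Cbfb (-0.27 ± 0.04) to Sp7 (-2.36 ± 0.10), against 69.8% of all tested genes called. Libraries of the groups did not overlap for any of the 7, against 71.1% of tested genes. At d5, 6 of the 7 were called, 4 higher and 2 lower, against 41.8% of tested genes (20.7% higher, 21.1% lower), and 5 of 7 had no overlap, against 51.9%. Twist2 was then 2.31-fold and Sp7 1.96-fold above vehicle, and Runx3 was 1.26-fold below it (-0.33 ± 0.05, adjusted p = 4.3e-05). The libraries are those of the comparisons above, so these values add no independent evidence.

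The FGF2 effect on 4 of the 7 genes differed between days: Sp7, Mef2c and Runx2 more positive at d5, and Runx1 less positive. Of all 14198 genes tested in the fit of 18 libraries, 60.9% were called in this test (31.8% higher, 29.1% lower), so differences between days were common. Sp7, Mef2c and Runx2 were called lower at d2.5 and higher at d5, with the limit given for Sp7 and Mef2c at d5. The knockdown effect differed for 3 of the 7 genes, Twist2, Cbfb and Mef2c, against 20.9% of all genes (11.6% higher, 9.35% lower). With upper-quartile factors the median of all genes in the FGF2 difference was 0.12, 0.09 above that with TMM factors, and Runx3 and Cbfb were then called as well (0.23 and 0.17). Relative to that shift they were near their values with TMM factors (0.14 and 0.08).

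**Figure D4:**
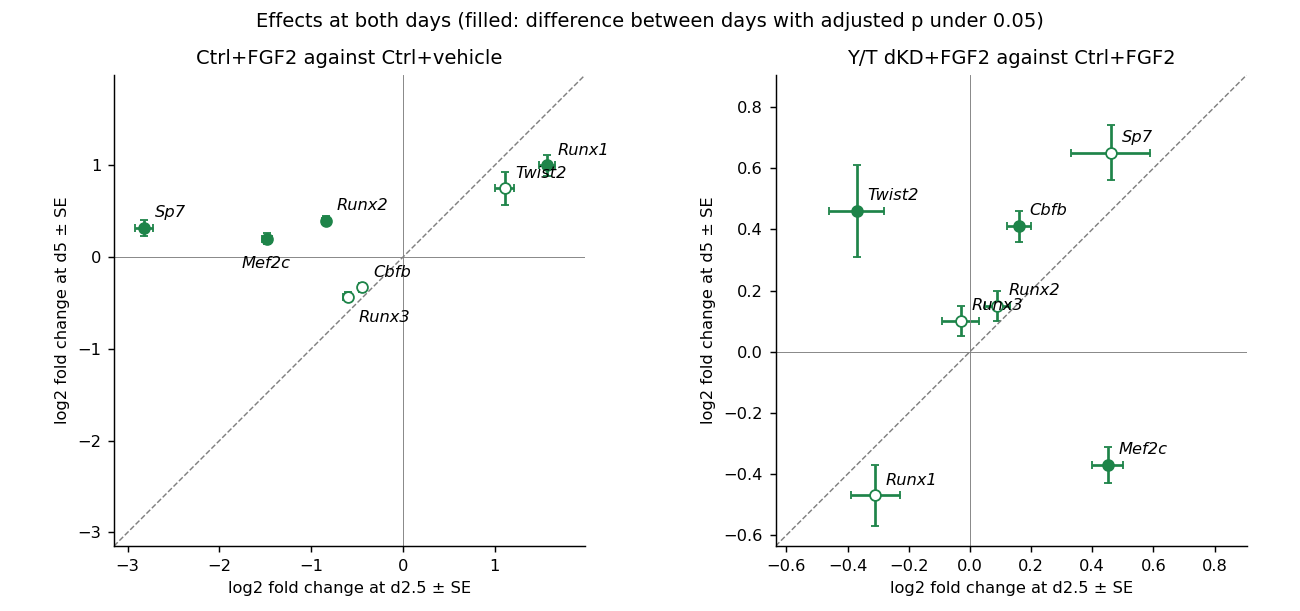
Log2 fold change ± SE at d2.5 (horizontal) and d5 (vertical) of each gene, for FGF2 (left) and for the knockdown under FGF2 (right). The dashed line marks equal effects, and filled points passed the test of the difference between days. Sp7, Mef2c and Runx2 lie left of 0 and above it for FGF2, and Mef2c lies right of 0 and below it for the knockdown.

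Levels at d5 and d2.5 were compared within each group as a description of time, in which the batch is included. With vehicle, 6 of 7 genes were called, 2 higher and 4 lower at d5, against 66.4% of all genes (33.1% higher, 33.2% lower), and 6 had no overlap between the days, against 68.4%. Sp7 changed by -2.35 ± 0.11 (adjusted p = 1.7e-17), Twist2 by -1.57 ± 0.14 (adjusted p = 7.1e-11) and Mef2c by -1.03 ± 0.05 (adjusted p = 1.0e-16). Runx2 changed by -0.26 ± 0.05, whereas Runx3 rose by 0.52 ± 0.05 and Cbfb by 0.37 ± 0.05. Runx1 gave -0.25 ± 0.12 (adjusted p = 0.0713), and it was called without Ctrl+vehicle replicate 1 of d2.5 (-0.35, adjusted p = 0.0169) or replicate 3 of d5 (-0.34, 0.0362). With FGF2 all 7 were called, 5 higher and 2 lower, against 80.0% of all genes (41.2% higher, 38.8% lower), and none overlapped between the days, against 81.1% of genes without overlap. There Runx2 rose by 0.96 ± 0.05 (1.95-fold), Sp7 by 0.76 ± 0.13, Runx3 by 0.66 ± 0.05, Mef2c by 0.63 ± 0.06 and Cbfb by 0.45 ± 0.05, and Twist2 and Runx1 were 3.89-fold and 1.80-fold lower at d5. With FGF2 and knockdown, 4 were higher and 3 lower, against 78.4% of genes called (40.3% higher, 38.1% lower), and all 7 had no overlap, against 79.8%. Runx2 was 2.02-fold higher, Sp7 1.94-fold, Runx3 1.73-fold and Cbfb 1.62-fold, while Twist2 was 2.19-fold, Runx1 2.02-fold and Mef2c 1.15-fold lower at d5.

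The order of the 6 groups differed from gene to gene. Runx2 ran from Y/T dKD+FGF2 at d5 (199 CPM) down to Ctrl+FGF2 at d2.5 (92.1 CPM), and no neighbours in that order overlapped. For Runx1 only the lowest 2 groups, vehicle at d2.5 and at d5, overlapped, and for Twist2 no neighbours did. Runx3 was highest with vehicle at d5, and its overlapping neighbours were the 2 groups with FGF2 at each day. Cbfb overlapped between Y/T dKD+FGF2 and vehicle at d5, and between Ctrl+FGF2 at d5 and vehicle at d2.5. For Sp7, the overlapping neighbours were Ctrl+FGF2 of d5, the knockdown of d2.5 and vehicle of d5. For Mef2c, they were the knockdown of d2.5, vehicle of d5 and the knockdown of d5.

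Around these factors, a list of 35 other regulators of the osteoblast lineage was read, of which 31 were tested at d2.5 and 30 at d5. With FGF2 at d2.5, 4 rose, 19 fell and 8 were not called, with a median of -0.26 against 0.00 over all genes. Of all tested genes, 33.5% were called higher and 34.1% lower there. Atf4, a stress-responsive factor of late osteoblasts, rose from 367 to 603 CPM (0.71 ± 0.03, adjusted p = 6.6e-19), and Foxc2, a forkhead factor of mesenchyme, from 8.51 to 13.4 CPM (0.64 ± 0.10, adjusted p = 2.7e-06). Hey1, a repressor downstream of Notch, fell from 107 to 0.818 CPM (-7.03 ± 0.17, adjusted p = 6.7e-26). Dlx5, a homeobox factor upstream of Runx2, went from 2.17 to 0.117 CPM (adjusted p = 7.2e-10), with 0 to 3 counts per FGF2 library. At d5 the list held 11 genes higher, 12 lower and 7 not called with FGF2, against 23.5% of all tested genes higher and 23.7% lower. Atf4 was then lower with FGF2 (124 against 366 CPM, -1.55 ± 0.10, adjusted p = 1.5e-09) and Hey1 less far apart (11.3 against 18.6 CPM, -0.71 ± 0.10, adjusted p = 1.6e-05). Under the knockdown, 8 rose and 7 fell at d2.5, against 10.8% of all tested genes higher and 13.6% lower. At d5, 10 of the list rose and 7 fell with the knockdown, against 15.6% higher and 16.1% lower. Hey1 was among those that rose at d5 (0.86 ± 0.10, adjusted p = 2.5e-06). Dlx5 was not called in the knockdown comparison at d2.5 (adjusted p = 0.76) or d5 (adjusted p = 0.965).

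Of 30 genes known as targets of Runx2 and Sp7 in osteoblasts, 25 were tested at d2.5. With FGF2, 7 rose, 16 fell and 2 were not called (median -1.46 against 0.00 over all genes), while 33.5% of all tested genes were called higher and 34.1% lower. Alpl, the alkaline phosphatase that frees phosphate for mineral, held 115 CPM with vehicle and 0.140 CPM with FGF2 (adjusted p = 2.5e-29), which was 2 counts in each FGF2 library. Fmod, a collagen-binding proteoglycan, went from 151 to 0.328 CPM (adjusted p = 1.4e-33), with 3 to 7 counts per FGF2 library. Dmp1, a matrix protein of osteocytes, ran the other way, from 11.8 to 455 CPM (5.25 ± 0.05, adjusted p = 3.8e-35), as did Enpp1, which makes the mineral inhibitor pyrophosphate, from 3.13 to 13.3 CPM (2.09 ± 0.12, adjusted p = 1.5e-15). The knockdown raised 8 and lowered 4 of the 25 at d2.5 (median 0.22), and 13 were not called, against 10.8% of all tested genes higher and 13.6% lower. Dmp1 and Enpp1 rose further, to 979 CPM (1.10 ± 0.03, adjusted p = 2.7e-20) and 40.9 CPM (1.61 ± 0.08, adjusted p = 7.9e-16). Alpl was at 0.105 CPM with the knockdown and was not called (adjusted p = 0.832).

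At d5, 27 of the targets were tested, and 8 rose and 15 fell with FGF2 (median -0.35 against 0.02). Of all tested genes, 23.5% were called higher and 23.7% lower with FGF2 at d5. Alpl was 162 CPM with vehicle, 54.5 CPM with FGF2 and 93.3 CPM with the knockdown, and both steps were called (-1.56 ± 0.09, adjusted p = 3.6e-10, and 0.78 ± 0.09, adjusted p = 5.6e-06). Under the knockdown at d5, 15 targets rose, 4 fell and 8 were not called (median 0.28 against 0.00). Of all tested genes, 15.6% were called higher and 16.1% lower in that comparison. Dmp1 rose from 6.22 to 59.2 CPM (3.25 ± 0.11, adjusted p = 1.4e-12) and Fmod from 505 to 579 CPM (0.19 ± 0.04, adjusted p = 0.00114). The list counts are descriptions and were not tested as sets.

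Genes whose proteins are known to bind or modify Runx factors moved in both directions at the level of RNA. Of 24 listed, 22 were tested at d2.5, and 10 rose and 8 fell with FGF2 (median 0.06 against 0.00 over all genes). Of all tested genes, 33.5% were called higher and 34.1% lower there, so movement in both directions was common. Ccnd1, cyclin D1 of the cell cycle, which with its kinase marks Runx2 for degradation, rose from 116 to 932 CPM (3.0 ± 0.03, adjusted p = 3.1e-34). The corepressor Tle1 rose (1.76 ± 0.07, adjusted p = 1.1e-19) while its paralog Tle2 fell (-1.17 ± 0.10, adjusted p = 1.4e-11). Smurf2, a ubiquitin ligase, fell by -0.86 ± 0.04 (adjusted p = 1.9e-17). At d5, 8 of 23 rose and 2 fell, against 23.5% of all tested genes higher and 23.7% lower. Ccnd1 was not called at d5 (182 against 190 CPM, adjusted p = 0.611). The knockdown raised 3 and lowered 7 of 22 at d2.5, against 10.8% of all tested genes higher and 13.6% lower. It raised 5 and lowered 4 of 23 at d5, against 15.6% higher and 16.1% lower.

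Of 19 paralogs and partners of Mef2c and Twist2, 16 were tested at each day, and 7 rose and 8 fell with FGF2 at d2.5 (median -0.09). Of all tested genes, 33.5% were called higher and 34.1% lower there. Id2 and Id3, which bind helix-loop-helix factors and keep them off DNA, fell from 58.1 to 12.7 CPM (-2.21 ± 0.11, adjusted p = 1.4e-17) and from 324 to 156 CPM (-1.06 ± 0.06, adjusted p = 1.5e-15). Hdac9, a deacetylase that binds Mef2 proteins, rose from 12.3 to 22.3 CPM with FGF2 (0.85 ± 0.09, adjusted p = 3.4e-10) and to 37.2 CPM with the knockdown (0.73 ± 0.07, adjusted p = 8.2e-09). At d5, 9 rose and 2 fell with FGF2, against 23.5% of all tested genes higher and 23.7% lower. Id3 was among those that rose (0.73 ± 0.06, adjusted p = 3.6e-08). The knockdown raised 4 and lowered 5 of 16 at d2.5, against 10.8% of all tested genes higher and 13.6% lower. It raised 6 and lowered 3 at d5, against 15.6% higher and 16.1% lower.

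**Figure D5:**
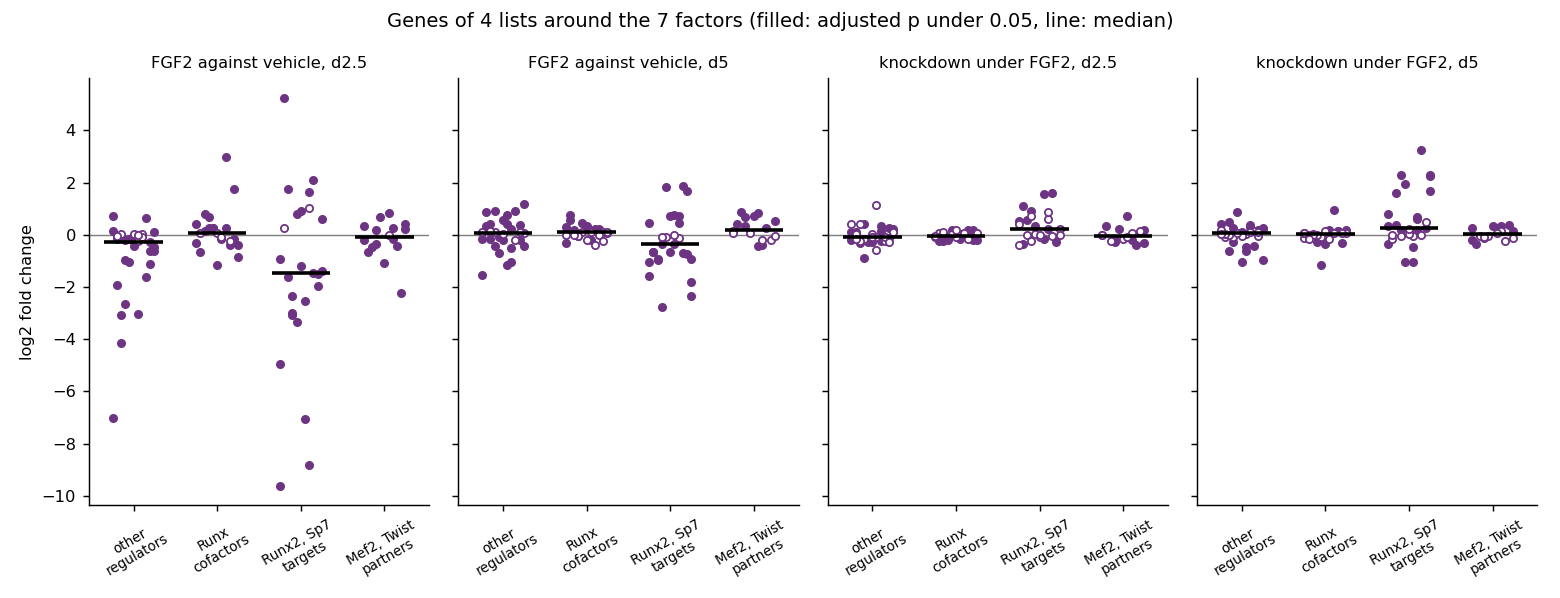
Log2 fold changes of the tested genes of 4 lists, by comparison. Filled points passed an adjusted p of 0.05 and lines are medians. The widest spread was among the Runx2 and Sp7 targets with FGF2 at d2.5, with Alpl lowest and Dmp1 highest, around a median of -1.46.

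Markers of cartilage and smooth muscle fell together with Sp7 and Mef2c with FGF2 at d2.5. Under the knockdown the tested cartilage markers moved in both directions, and the tested smooth muscle markers were lower or not called. Of 8 cartilage markers, 6 were tested and all 6 fell with FGF2 at d2.5, where 33.5% of all tested genes were called higher and 34.1% lower. The sum of the 8 was 749 to 982 CPM with vehicle, 137 to 147 with FGF2 and 137 to 144 with the knockdown. Col2a1, the main cartilage collagen, was 460 CPM with vehicle and 0.985 with FGF2 and Sox9 was 164 and 80.5 CPM, while Matn1 never exceeded 1 count in any library. At d5 the cartilage sum was 268 to 400, 356 to 460 and 423 to 433 CPM. Of 6 smooth muscle markers, 3 were tested at d2.5 and all 3 fell with FGF2, and their sum was 264 to 363 CPM with vehicle, 80.1 to 88.7 with FGF2 and 66.2 to 75.8 with the knockdown. When Sp7 and Mef2c rose with the knockdown at d2.5, 2 tested cartilage markers were called higher, 1 lower and 3 not called (median 0.19 against 0.00). Of all tested genes, 10.8% were called higher and 13.6% lower in that comparison. Col2a1 rose from 0.985 to 2.96 CPM (1.57 ± 0.51, adjusted p = 0.0237), with 10 to 18 counts per Ctrl+FGF2 library. Sox5 rose too (0.23 ± 0.08, adjusted p = 0.0411). Sox9, the largest part of the cartilage sum with FGF2, fell from 80.5 to 67.7 CPM (-0.26 ± 0.05, adjusted p = 1.7e-04). Of the 3 tested smooth muscle markers, 2 were called lower, Acta2 among them (-0.68 ± 0.13, adjusted p = 2.5e-04), and none higher. At d5 the smooth muscle sum was 2389 to 2554, 3225 to 3656 and 2732 to 2913 CPM, with Acta2 as the main part. The defining smooth muscle genes Myh11 and Myocd reached at most 0.977 and 0.184 CPM. Of 6 adipocyte markers, 2 were tested at d2.5, and 1 rose and none fell with FGF2. The knockdown lowered 2 and raised none at d2.5, Fabp4 by -0.35 ± 0.07 (adjusted p = 1.7e-04). Adipoq never exceeded 1 count, while Pparg (11.2 to 19.8 CPM) and Fabp4 (3.91 to 35.2 CPM) were present in every library. The part of these cell states in the results for Sp7 and Mef2c was not tested.

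The 3 genes whose level ran most like that of each factor over the 18 libraries, among 11731 genes whose log2 CPM averaged 1 or more, were named by Pearson's r. These r are descriptions, since all points share the same libraries, days and groups. Runx2 ran with Atp8b2 (r = 0.981), Vcl (0.980) and Matn4 (0.980), of which Vcl, which encodes vinculin of focal adhesions, held 777, 525 and 569 CPM in the 3 groups at d2.5 and 727, 862 and 901 CPM at d5. Runx1 ran with the glucose transporter gene Slc2a1 (0.961), Gm14150 (0.960) and Card10 (0.960). For Runx3 they were Prrc1 (0.988), Kdelr3 (0.987) and Ube2j1 (0.987), and for Cbfb they were Pikfyve (0.973), Ext1 (0.973) and Dock4 (0.970). Sp7 ran with Id2 (0.961), Fgd3 (0.949) and Snai1 (0.940), and Snai1 held 66.1, 21.9 and 21 CPM at d2.5 and 28.2, 35.7 and 36.2 CPM at d5. Mef2c had the lowest likeness to its nearest genes, Rdh10 (0.936), Lacc1 (0.927) and Adam10 (0.923). Twist2 ran with Pelp1 (0.981), Sart3 (0.980) and Clic1 (0.977).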

How the data were processed

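Bulk poly(A) RNA-seq of O9-1 cells was analysed in 18 libraries, grouped by the labels. The authors deposited raw counts per gene, not normalized and laid out as STAR writes gene counts, and the submitters' processing notes name FastQC, STAR, Picard, featureCounts and mm10, with versions not given in the sources used here. The counts of the reverse strand, 96.0% to 96.6% of stranded counts, were used, and entries that name no gene (27.0% to 34.4% of a library) were left out. Of 55335 identifiers, 55154 matched GENCODE M21 (GRCm38) without their version, from which names, exon lengths and overlaps were taken. Runx2 matched in this way only.

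edgeR 4.0.16 (R 4.3.3, quasi-likelihood test, TMM, filterByExpr) was fitted to the 9 libraries of each day, and to all 18 for days and for differences of effects, and checked on simulated counts. SE are the absolute log2 fold change over the square root of F. CPM use TMM factors, and log2 CPM a prior count of 2. Alternatives were unstranded counts, RLE and upper-quartile factors, DESeq2 1.42.0, no filter, a replicate block, other sets of libraries, and leaving out each library. No 2 replicates agreed within sampling noise (chi-square per gene 1.25 to 6.41). From each list up to 4 genes were named, the 2 highest and 2 lowest log2 fold changes among those called with FGF2 at d2.5, with further markers named for their levels. The members, lists and rules were chosen with earlier results of these data known.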

Additional observations from a re-analysis of the deposited data

Results flagged for a closer look

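In 7 results the effect of FGF2 or of the knockdown differed between d2.5 and d5 by the edgeR test of the difference itself, in which 60.9% (FGF2) and 20.9% (knockdown) of all genes were called. For FGF2 against vehicle, the log2 difference (d5 minus d2.5) was 3.11 for Sp7 (adjusted p = 2.3e-15), 1.66 for Mef2c (adjusted p = 2.8e-17), 1.22 for Runx2 (adjusted p = 1.9e-15) and -0.59 for Runx1 (adjusted p = 0.00135). For the knockdown under FGF2, it was 0.83 for Twist2 (adjusted p = 4.0e-04), -0.83 for Mef2c (adjusted p = 8.8e-09) and 0.24 for Cbfb (adjusted p = 0.00785). These tests compare effects within each day, so an additive shift between the batches of the days drops out, while a batch that changes the effect cannot be told apart from the day. All 7 kept their call in each of the 18 fits without 1 library, and with unstranded counts only the one for Twist2 was lost.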

How the results depend on the processing

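Over 77 results (7 genes in 11 comparisons), no alternative reversed a direction in 1554 recomputed values, of which 1525 kept their side of the threshold, 23 lost a call and 6 gained one. RLE factors, no filter, the fit of 2 groups only and the replicate block changed no call. The replicate numbers did not pair the libraries (correlations of same-numbered deviations between -0.072 and 0.115 over 18 pairs), and with the replicate block 7 and 7 genes were called for FGF2 and 5 and 6 for the knockdown at d2.5 and d5. Unstranded counts lost 5 calls and gained 1, all of Twist2. Without 1 library, the knockdown called 4 to 5 genes at d2.5 and 4 to 6 at d5, and FGF2 6 to 7 at d5. Upper-quartile factors lost 1 call and gained 3, and DESeq2 and the fit of all 18 libraries lost 1 each. The calls lost or gained beside those of Twist2 were of Runx1, Runx2, Runx3, Cbfb, Sp7 and Mef2c at differences of at most 0.35 in log2, and the cause was not tested. Twist2 had the fewest counts, which limits its precision at d5.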
